A study of Homo sapiens with 6 samples.

Results

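The complement components and regulators described here are 8 genes taken by name from the 19198 genes of the deposited table. C3, C1R, C1S, CFB and SERPING1 encode secreted proteins, and CD46, CD55 and CD59 encode regulators held on the cell membrane. All 8 were found in the table and all 8 passed the minimum for testing, which was a mean of 10 normalized counts over the 6 samples. A normalized count is the number of reads of a gene divided by a scaling factor of its sample.

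Complement is a cascade of plasma proteins that tags targets for removal and can end in a pore in a cell membrane. C1r and C1s are the proteases of the C1 complex, C3 is the central protein on which the activation routes meet, and factor B, the product of CFB, forms the alternative route's convertase together with C3b. C1 inhibitor, the product of SERPING1, blocks C1r and C1s, while CD46 helps factor I to cleave C3b, CD55 speeds the decay of convertases and CD59 blocks the pore. The liver supplies most of the circulating proteins, and epithelial cells and fibroblasts also express many of these genes.

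Growth factor depletion of MCF10A, an established mammary epithelial cell line, was used in the study as a model of epithelial to mesenchymal transition (EMT). The control cells (3 samples, replicates 1 to 3) grew in medium with 5% horse serum, 10 µg/ml insulin, 20 ng/ml EGF, 100 ng/ml cholera toxin and 0.5 µg/ml hydrocortisone, and the depleted cells (3 samples, replicates 1 to 3) in the same serum with none of these additions. Both groups therefore kept horse serum, all samples come from 1 cell line, and the day of RNA isolation is not given in the labels. The labels call the line luminal ductal cells; all 10 epithelial markers looked up were in the table, the luminal keratin KRT8 (2442 to 19305 normalized counts) and the basal keratin KRT5 (562 to 38503) among them.

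The samples held 7472418 to 28672630 reads on genes. A count of 3 reads, the floor used here, equals 1.76 to 6.71 normalized counts and covers counting error only. Control replicate 3 and depleted replicate 1 stood apart from the others of their groups for several complement genes, and results that rest on them are given with and without them. Depleted replicate 1 also had the least CDH1, at 610 normalized counts against 13234 and 13118 in the other depleted samples. Nothing in the labels says that replicates were separate cultures, so p-values measure the spread between these samples, which may be technical.

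CD55 was lower in every sample without growth factors, by 3.83-fold on average, and it was the only 1 of the 8 genes to pass the test. In bulk RNA, fewer cells that express a gene and less of its RNA per cell cannot be told apart. The secreted genes did not pass in either direction. C3 was lower and C1R and C1S were higher on average without growth factors, but control replicate 3 or depleted replicate 1 overlapped the other group or came close to it. CD46 and CD59 had log2 fold changes within 0.6 of 0. Differences were tested by limma on log2(normalized count + 1), and a gene was called if it passed both a Benjamini-Hochberg adjusted p of 0.05 over all genes and a 2-fold difference. By this rule 0 of the 8 genes were called higher and 1 was called lower, where of the 16988 genes tested 6.33% were called, 4.36% as higher and 1.97% as lower. At an unadjusted p under 0.05, 2 of the 8 were higher and 2 lower, where 20.0% of all genes tested were below that p in either direction. The quasi-likelihood test of edgeR on recovered reads called 0 higher and 1 lower (5.72% of all genes called), and DESeq2 called 0 higher and 2 lower (12.4% of all genes). The groups did not overlap for 3 of the 8 genes, C1S, CD46 and CD55, 1 above and 2 below the controls, against 25.6% of all genes tested (13.5% above and 12.1% below).

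**Figure D1:**
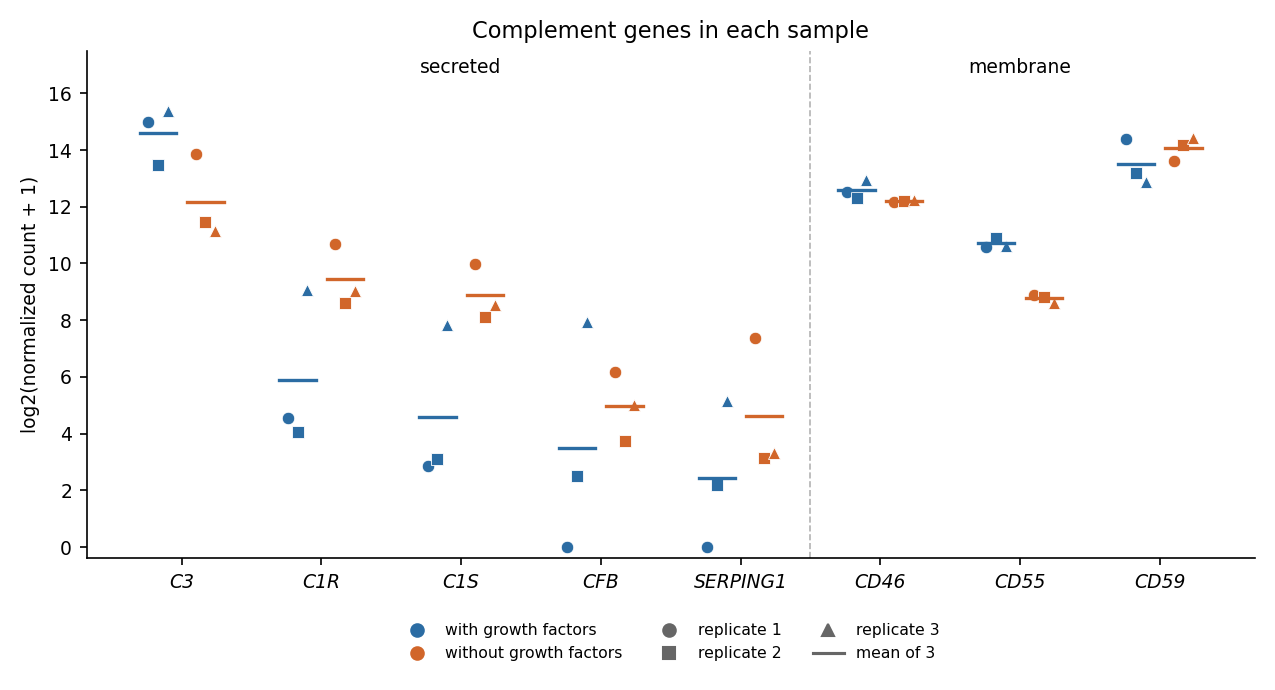
Level of each complement gene in each sample, as log2(normalized count + 1), with blue points for cells with growth factors, orange points for cells without, a marker shape for each replicate number and a bar for the mean of 3. CD55 shows separate groups, while control replicate 3 (blue triangle) lies near, within or above the depleted samples for C1R, C1S, CFB and SERPING1.

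CD55, also called decay-accelerating factor, is attached to the membrane by a lipid anchor. The gene spans chr1:207321519-207386804 (hg38, plus strand). In control replicates 1 to 3 CD55 was at 1537, 1911 and 1586 normalized counts, and in depleted replicates 1 to 3 it was at 479, 449 and 385. The lowest control sample was above the highest depleted sample, and the spread within each group was small beside the difference. CD55 fell from a mean of 1678 ± 204 (SD, n = 3) to 437 ± 48.1 (SD, n = 3), and the log2 fold change was -1.94 ± 0.26 (SE, limma adjusted p = 0.0042). It was called in all 6 fits that left out 1 sample, with log2 fold changes between -2.00 and -1.84. The library with the highest C3, C1R and C1S of the controls, control replicate 3, was not unusual for CD55, at 0.92 times the mean of the other controls.

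The promoter window of CD55 is shown because CD55 is the gene called among the 8, with the windows of C1R and CFB for the secreted genes that were high together in control replicate 3. Each window runs from 250 bases before to 50 bases after a RefSeq start on GRCh38.p14, read 5′ to 3′ on the gene's strand. The RefSeq promoter table held 10 windows for 5 of the 8 genes, CD46, CD55, CD59, C1R and CFB; C3, C1S and SERPING1 had no entry. The CD55 window is chr1:207321428-207321727 (plus strand), the CFB window chr6:31945845-31946144 (plus strand), and the C1R windows chr12:7092396-7092695 and chr12:7091844-7092143 (minus strand, upstream start first). Capitals mark matches on either strand to the motif letters searched, which were TTCNNNGAA for GAS, TTGCNNAA for C/EBP, TGANTCA for AP-1, TGACGTCA for CRE, TGTGGT for RUNX and TATAAA for the TATA box. The other motifs were ISRE (TTTC, any 2 bases, TTTC), NF-kappaB (GGG, any 2 bases, TTTCC) and GRE, the glucocorticoid response element (ACA, any 3 bases, TGT, with a G 2 bases before and a C 2 bases after).
CD55: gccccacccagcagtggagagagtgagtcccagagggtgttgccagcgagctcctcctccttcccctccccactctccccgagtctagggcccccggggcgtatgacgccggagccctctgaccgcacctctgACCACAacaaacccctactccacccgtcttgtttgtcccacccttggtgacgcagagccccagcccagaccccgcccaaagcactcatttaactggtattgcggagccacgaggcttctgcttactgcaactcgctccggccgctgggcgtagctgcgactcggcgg
CFB: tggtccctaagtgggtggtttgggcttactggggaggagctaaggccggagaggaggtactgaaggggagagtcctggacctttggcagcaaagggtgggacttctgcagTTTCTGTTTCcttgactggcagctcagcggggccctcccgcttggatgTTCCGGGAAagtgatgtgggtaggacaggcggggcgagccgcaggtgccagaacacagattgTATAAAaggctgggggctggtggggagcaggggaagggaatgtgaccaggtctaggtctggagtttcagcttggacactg
C1R, upstream start: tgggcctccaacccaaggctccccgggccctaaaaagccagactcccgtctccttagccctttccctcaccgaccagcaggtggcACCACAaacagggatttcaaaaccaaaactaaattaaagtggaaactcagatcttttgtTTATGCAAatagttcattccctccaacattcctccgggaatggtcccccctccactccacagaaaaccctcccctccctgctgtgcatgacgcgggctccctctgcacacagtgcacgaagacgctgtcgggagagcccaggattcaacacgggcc
C1R, downstream start: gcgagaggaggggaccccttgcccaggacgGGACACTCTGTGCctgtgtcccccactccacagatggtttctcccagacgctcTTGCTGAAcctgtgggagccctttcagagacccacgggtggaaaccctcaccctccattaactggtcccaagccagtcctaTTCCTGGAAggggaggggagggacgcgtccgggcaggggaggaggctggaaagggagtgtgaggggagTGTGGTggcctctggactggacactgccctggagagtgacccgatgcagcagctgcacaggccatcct

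The CD55 window held 1 match, to the RUNX letters (on the other strand, ACCACA as shown) starting 117 bases before the start, and 13.1% of the 35116 RefSeq promoter windows held these letters. The CFB window held ISRE letters (3.57% of all windows) 140 bases before the start, GAS letters (7.66%) 92 bases before it and TATA letters (11.5%) 30 bases before it. The downstream C1R window held GRE (0.39% of all windows), C/EBP (10.5%), GAS and RUNX letters, and the upstream one RUNX and C/EBP letters. The CD46 windows held none of the motifs. Among the 4 CD59 windows, AP-1 letters (7.71% of all windows) matched 3 times in 1 window, which also held RUNX letters as the CD55 window did. GAS letters were in 2 of the other windows, which overlap and hold the same 1 site, and C/EBP letters matched 2 times in the remaining one. No match overlapped another. The letters of NF-kappaB (1.91% of all windows) and CRE (1.85%) were in none of the 10 windows. These are matches of letters only, and no binding was measured in these files.

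CD46, or membrane cofactor protein, spans chr1:207752037-207795513, 365.2 kb beyond the end of CD55 on the same strand. It was at 5825, 5023 and 7857 normalized counts with growth factors and at 4598, 4744 and 4852 without. The depleted samples were all below the controls, but by little. CD46 had a log2 fold change of -0.37 ± 0.30 (SE, limma adjusted p = 0.56) and was not called in any of the alternatives run. A long noncoding RNA on the opposite strand, MIR29B2CHG, shares 5.1% of the exon bases of CD46, and the libraries were strand-specific.

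CD59, or protectin, the blocker of the terminal pore, spans chr11:33703010-33736479 on the minus strand. It was at 21571, 9362 and 7569 normalized counts in the controls and 12442, 18450 and 22248 without growth factors. The groups overlapped, with control replicate 1 close to the highest depleted sample. The estimate of 0.58 ± 0.48 on the log2 scale (SE, limma adjusted p = 0.581) was not called and was the only positive one of the membrane regulators. CD55 and CD59 share the way they are anchored, and CD55 fell while CD59 did not pass the test; the difference between these changes was not tested.

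C3 was the most abundant of the secreted genes in every sample. The gene spans chr19:6677704-6730562 on the minus strand. With growth factors, replicates 1 to 3 held 32758, 11290 and 42679 normalized counts of C3, and without growth factors they held 14864, 2840 and 2285. Depleted replicates 2 and 3 were far below every control, while depleted replicate 1 lay above control replicate 2. The mean was 28909 ± 16045 (SD, n = 3) with and 6663 ± 7108 (SD, n = 3) without growth factors. The log2 fold change of -2.45 ± 0.77 (SE) did not pass, with a limma adjusted p of 0.111. Without depleted replicate 1 it was -3.30 (limma adjusted p = 0.0213), and DESeq2 with all samples also called C3 lower (adjusted p = 0.032). Of the 6 fits that left out 1 sample, only that 1 called C3, and edgeR with all samples did not (-2.09, adjusted p = 0.199). A long noncoding RNA on the same strand, ENSG00000276980, shares 11.7% of the exon bases of C3, and reads there may not be assigned to C3. It was counted at 1.31 to 53.1 normalized counts. Reads that lie in both genes may be missing from this count too, so it does not show how many C3 lost.

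C1R and C1S, whose proteins work as a pair, are neighbours on chromosome 12, C1S at chr12:6988259-7071032 on the plus strand and C1R at chr12:7080214-7092540 on the minus strand, 9.18 kb apart. C1R had 22.6, 15.8 and 537 normalized counts with growth factors (replicates 1 to 3) and 1639, 391 and 519 without (replicates 1 to 3). C1S had 6.27, 7.62 and 228 in the controls and 1006, 273 and 373 without growth factors. Control replicates 1 and 2 were low for both genes, control replicate 3 reached the range of depleted replicates 2 and 3 for C1R and came just below it for C1S, and depleted replicate 1 was the highest sample for both.

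The low control values rest on few reads, 18 and 27 reads of C1R and 5 and 13 reads of C1S in control replicates 1 and 2. The mean of C1R was 192 ± 299 (SD, n = 3) with and 850 ± 687 (SD, n = 3) without growth factors, and that of C1S 80.7 ± 128 (SD, n = 3) with and 551 ± 397 (SD, n = 3) without. On the log2 scale C1R differed by 3.54 ± 1.22 (SE, limma adjusted p = 0.141) and C1S by 4.27 ± 1.23 (SE, limma adjusted p = 0.084), so neither passed. Without control replicate 3 the estimate was 5.12 for C1R (limma adjusted p = 0.00483) and 5.89 for C1S (limma adjusted p = 0.0028), and both were then called, as were 14.9% of all genes tested in that fit. With depleted replicate 1 left out as well, the estimates were 4.50 and 5.34, both called (19.5% of all genes). The count models gave lower estimates with all samples, 2.16 for C1R and 2.78 for C1S by edgeR, neither of them called (adjusted p = 0.388 and 0.265).

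Within each library, C1S was counted less than C1R. The log2 ratio of C1S to C1R, with 1 added to each normalized count, was -1.70, -0.96 and -1.23 in control replicates 1 to 3 and -0.70, -0.51 and -0.47 in depleted replicates 1 to 3. The ratio was higher in every depleted sample than in every control, by 0.73 on average. The exact permutation test (two-sided, 3 against 3 samples) gave p = 0.1, the smallest it can give (0.2 after Benjamini-Hochberg adjustment over the 2 ratios tested). With 10 rather than 1 added to each normalized count, the groups overlapped (exact permutation p = 0.2 before adjustment). C1R shares 11.6% of its exon bases with its neighbour C1RL on the same strand, so part of its reads may have been left unassigned.

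CFB, at chr6:31945650-31952086 on the plus strand, was the gene for which control replicate 3 departed most from the other controls. Its normalized counts were 0, 4.69 and 244 with growth factors (replicates 1 to 3) and 70.5, 12.5 and 31.3 without (replicates 1 to 3). Control replicate 3 held the highest value of all samples, 104 times the mean of the other controls. The direction of change depended on the scale. The means were 82.9 ± 140 (SD, n = 3) with and 38.1 ± 29.6 (SD, n = 3) without growth factors, yet the log2 fold change was 1.49 ± 1.76 (SE) by limma (adjusted p = 0.711). It was -1.11 by edgeR (adjusted p = 0.761) and -1.15 by DESeq2 (adjusted p = 0.832). Without control replicate 3 it was 3.72 by limma (adjusted p = 0.0482), and without control replicate 1 it was -0.25. In the annotation used here, 42.3% of the exon bases of CFB also belong to a read-through gene that joins it to C2, and whether reads were lost there in the authors' counting was not tested.

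SERPING1, at chr11:57597387-57619171 on the plus strand, was the lowest of the 8 genes by mean count. Its normalized counts were 0, 3.52 and 34.4 with growth factors (replicates 1 to 3) and 163, 7.87 and 8.94 without (replicates 1 to 3). Depleted replicate 1 was at 19.4 times the mean of the other depleted samples, and control replicate 3 lay above those as well. The values of control replicates 1 and 2 rest on 0 and 6 reads, and depleted replicate 3 on 4. The mean was 12.6 ± 18.9 (SD, n = 3) with and 59.9 ± 89.2 (SD, n = 3) without growth factors. The log2 fold change was 2.17 ± 1.50 (SE, limma adjusted p = 0.494) and 0.79 without depleted replicate 1, and it was called in none of the fits run, while DESeq2 gave it no adjusted p. The log2 ratio of this inhibitor to its target protease C1S was -2.86, -0.93 and -2.69 in the controls and -2.62, -4.95 and -5.24 without growth factors, with overlapping groups (exact two-sided permutation p = 0.3, also after adjustment). With 10 rather than 1 added to each normalized count, the groups of this ratio did not overlap (exact permutation p = 0.1 before adjustment).

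**Figure D2:**
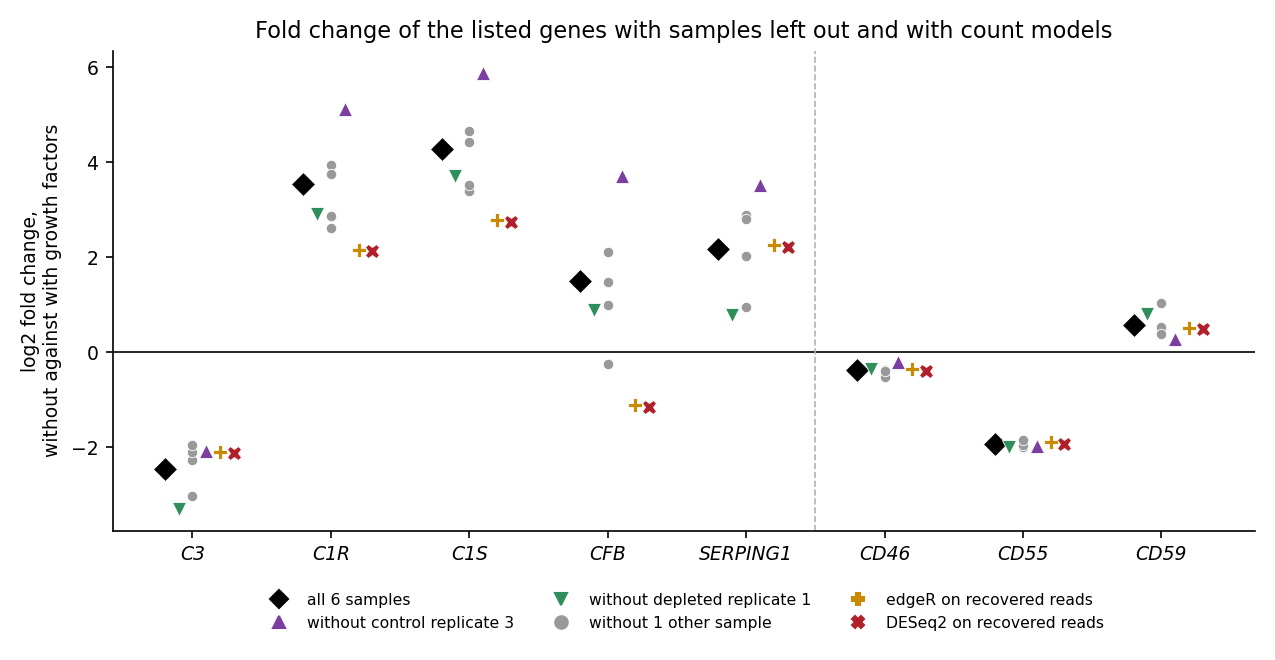
Log2 fold change of each complement gene, without against with growth factors, with all 6 samples, with 1 sample left out in turn, and by the count models edgeR and DESeq2. The points of CD55 lie close together, those of C1R, C1S, CFB and SERPING1 are highest without control replicate 3, and CFB lies on both sides of 0.

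Secreted genes and membrane regulators were then set side by side. The median log2 fold change was 2.17 for the 5 secreted genes and -0.37 for the 3 membrane regulators, beside -0.03 over all genes tested, but among the secreted genes C3 went the other way and CFB had no fixed direction. The median log2 level of the secreted genes was below that of the membrane regulators in every sample. The difference, secreted minus membrane, was -9.65, -9.18 and -4.95 in control replicates 1 to 3 and -2.19, -4.11 and -3.69 in depleted replicates 1 to 3. The gap was narrower in each depleted sample than in each control, and control replicate 3 was nearest to the depleted samples. The secreted median was the value of C1S in every sample but control replicate 3, where it was that of CFB. The C1S values of control replicates 1 and 2 rest on 5 and 13 reads, so the narrowing describes mainly C1S and not the secreted genes as a set. No test was made of this score, since the genes were chosen with earlier results of these data known.

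Levels of different genes were compared per kilobase of the MANE Select transcript, which assumes that this transcript is the one expressed. On this scale C3 made up 99.8, 99.4 and 95.1% of the summed level of the 5 secreted genes in control replicates 1 to 3. Its share was 71.2, 66.9 and 54.5% in depleted replicates 1 to 3, with C1R and C1S making up most of the rest. The share of C3 was lower in every depleted sample than in every control. The summed level of the secreted genes itself ranged from 2171 to 8577 normalized counts per kb in the controls and from 802 to 3993 without growth factors, and overlapped.

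For the membrane regulators, CD55 made up 11.4, 21.1 and 15.4% of the summed level per kb in control replicates 1 to 3 and 5.75, 4.29 and 3.26% in depleted replicates 1 to 3. The sum of the 3 genes stayed within 3489 to 5200 normalized counts per kb in the controls and 3215 to 4552 without growth factors. The secreted sum divided by this sum was 1.21, 0.62 and 2.16 in control replicates 1 to 3. In depleted replicates 1 to 3 it was 1.24, 0.20 and 0.18, so the groups overlapped, unlike those of the median difference above. C3 was the highest by level per kb within each control sample, although its range over the controls (2158 to 8159) overlapped those of CD46 (1513 to 2367) and CD59 (1001 to 2852), which also overlapped each other. CD55 came next (593 to 738) and then C1R (6.36 to 216). In the depleted samples CD59 (1645 to 2942) was above CD46 (1385 to 1461), C3 (437 to 2842) overlapped both, and CD55 (148 to 185) overlapped C1R (157 to 659). C1S, CFB and SERPING1 were below CD55 in every control sample, and their ranges overlapped one another there.

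**Figure D3:**
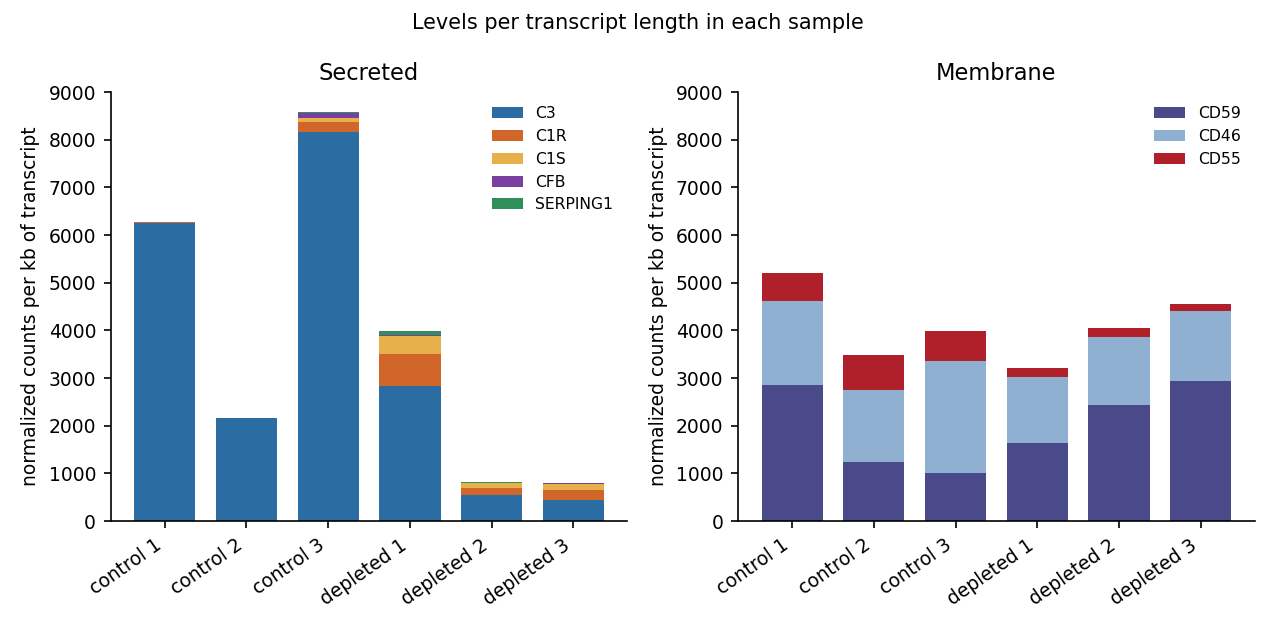
Summed level of the secreted genes (left) and the membrane regulators (right) in each sample, in normalized counts per kb of transcript, with a colour for each gene and both axes starting at 0. C3 fills nearly all of the secreted bar in the controls, and the CD55 part of the membrane bar is smaller in each depleted sample.

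Control replicate 3 had the highest value of the controls for 6 of the 8 genes, among them all 5 secreted ones, where 41.3% of all genes tested were highest in that library. This was not particular to complement. That library was also the highest control for 13 of the 14 transcription factors and 5 of the 9 acute phase genes tested, which are described below. For C1R, C1S, CFB and SERPING1 it was at least 5 times the mean of the other controls (28.0, 32.9, 104 and 19.6 times), a gap seen in 6.71% of all genes. Depleted replicate 1 was the highest depleted sample for 6 of the 8 genes (39.0% of all genes), the 5 secreted genes and CD55. Across 13035 genes, which are not independent replicates, the deviation of control replicate 3 from the gene mean rose with transcript length (Spearman's rho 0.366), and that of control replicate 2 fell with it (-0.358). Once values were corrected for transcript length and GC content, the log2 fold changes of C1R and C1S were 3.40 and 4.09, and neither passed.

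Over the 6 samples, the log2 values of C1S had the second highest Pearson r with C1R (0.992) among 11687 genes whose mean reached 100 normalized counts, after CFI (0.993). The genes nearest to C1S were TRANK1 (0.996) and PML (0.994), and those nearest to C3 were RAB26 (0.999) and BCHE (0.994). For CFB they were LRRC14 (0.997) and TMEM63A (0.991), and for SERPING1 NBPF15 (0.993) and SNX1 (0.987). Among the membrane regulators they were AKAP8 (0.997) and ABITRAM (0.996) for CD55, C9orf72 (0.996) and ORMDL1 (0.98) for CD46, and FBXW11 (0.992) and PIGC (0.99) for CD59. These 6 points share 2 conditions and the same libraries, and the values are a description only.

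The rest of the complement system was read from lists of 62 genes, the 8 described above included. Of the 54 others, 17 were in the table, 13 of them passed the minimum mean, and 37 were not analysed here, among them the C1q chains, C4A, C4B and the liver-made terminal components C8A, C8B and C9. By limma 1 of the 13, CLU, was called higher without growth factors and 0 lower (4 higher and 1 lower at an unadjusted p under 0.05, 1 higher and 0 lower by edgeR, and 2 higher and 0 lower by DESeq2, CLU and SUSD4), with a median log2 fold change of 0.03 beside -0.03 over all genes tested. Over all genes tested, limma called 4.36% as higher and 1.97% as lower, and 20.0% had an unadjusted p under 0.05. In either direction, edgeR called 5.72% of all genes and DESeq2 12.4%. Of the 13, CLU and SUSD4 had all depleted samples above the controls and C5AR2 had them below, a share near the 25.6% of all genes tested. C6 and C3AR1, under the minimum mean, also had all depleted samples above the controls.

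CLU encodes clusterin, a secreted chaperone that also binds terminal complement complexes. It had 211, 36.3 and 409 normalized counts in the controls and 3148, 3208 and 4450 without growth factors. It rose by 4.59 ± 0.76 on the log2 scale (SE, limma adjusted p = 0.00997) and was called in all 6 fits that left out 1 sample. CFI encodes factor I, the protease that uses CD46 as a cofactor. It had 65.2, 36.9 and 412 normalized counts in the controls and 777, 415 and 391 without growth factors. Its log2 fold change of 2.31 did not pass (limma adjusted p = 0.145). It passed without control replicate 3 (3.33, limma adjusted p = 0.00556) and with depleted replicate 1 left out as well (3.01, limma adjusted p = 0.00264).

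None of the other soluble components tested passed. C1RL, a relative of C1R, had a log2 fold change of -0.11, CFD, the protease factor D, 0.16, CFP, the stabilizer properdin, -0.11, and C5, the first of the terminal components, -0.53, with limma adjusted p between 0.713 and 0.959. C2 and COLEC10 were below the minimum mean, at 1 to 17 and 3 to 15 reads per sample. C6 was below it too, at 0 to 9 reads per sample. Besides the 3 membrane regulators above, SUSD4 had 3.76, 6.44 and 9.84 normalized counts in the controls and 26.5, 38.7 and 33.5 without growth factors. Its log2 fold change was 2.21, and the limma adjusted p was 0.0665, or 0.0219 without control replicate 3 and 0.0178 by DESeq2. THBD, the gene of thrombomodulin, differed by 2.68 on the log2 scale (limma adjusted p = 0.202), from 0 to 11 reads in the controls and 5 to 41 without growth factors.

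Receptors of complement fragments were low. C5AR2 had 26.3, 100 and 13.8 normalized counts in the controls and 2.75, 10.5 and 11.2 without growth factors (log2 fold change -2.09, limma adjusted p = 0.216). C5AR1 had 2.51, 1.76 and 52.1 in the controls and 6.41, 4.59 and 8.94 without, so that control replicate 3 was once more the highest sample. C3AR1, the receptor of the C3a fragment, had 0, 2 and 0 reads in the controls and 10, 25 and 9 without growth factors, and its mean was below the minimum for testing. Of the widely expressed proteins that bind C1q, CALR had a log2 fold change of 0.03 and C1QBP of -1.03, and ITGB2, the shared chain of the complement receptor integrins, of 0.25. None of these passed (limma adjusted p = 0.983, 0.378 and 0.74), and C1QBP was called without control replicate 3 (-1.76, limma adjusted p = 0.0109).

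**Figure D4:**
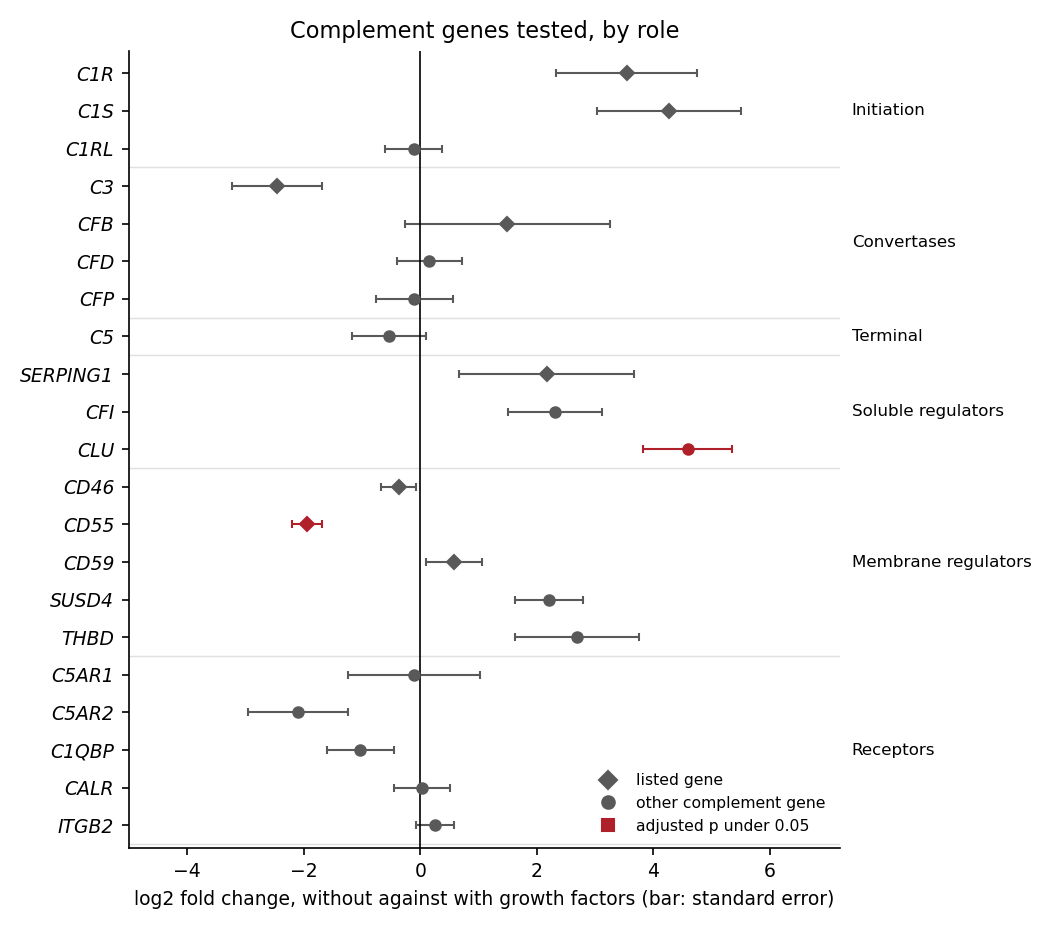
Log2 fold change, without against with growth factors, of the 21 complement genes tested, grouped by role, with bars for the standard error. Diamonds are the 8 genes described first, circles the 13 others, and red marks an adjusted p under 0.05, which CD55 on the lower side and CLU on the higher side reached.

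**Figure D5:**
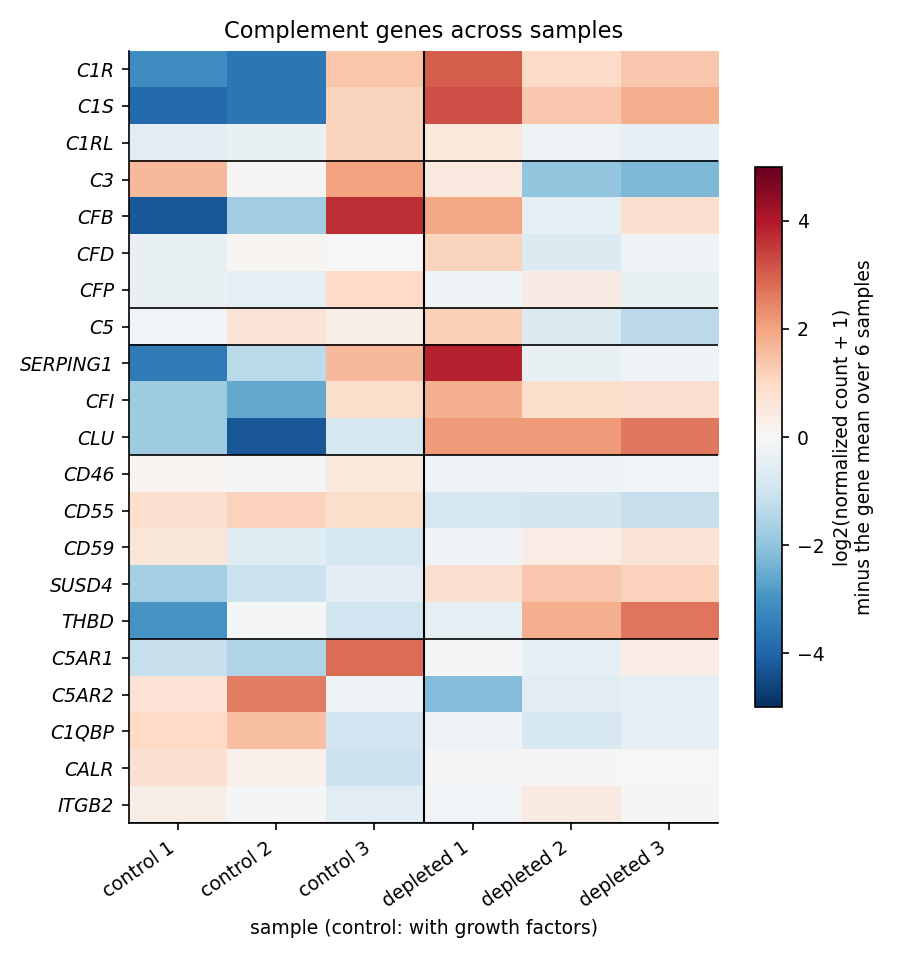
Level of the same 21 genes in each sample, as log2(normalized count + 1) minus the gene's mean over 6 samples, in red above and blue below that mean. Control replicate 3 is closer to the depleted samples than the other controls are for C1R, C1S, SERPING1 and CFI, and CD55 keeps the same sign within each group.

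Genes linked to the acute phase response were read from a list of 18. Of these 10 were in the table and 9 were tested. A2M and PTX3 were called higher and 0 were called lower (3 higher and 2 lower at an unadjusted p under 0.05, 2 higher and 0 lower by edgeR, and 1 higher and 2 lower by DESeq2), with a median log2 fold change of 0.85 over the 9. Over all genes tested, limma called 4.36% as higher and 1.97% as lower, and 20.0% had an unadjusted p under 0.05. In either direction, edgeR called 5.72% of all genes and DESeq2 12.4%. A2M, a broad protease inhibitor, rose by 8.37 on the log2 scale (limma adjusted p = 0.00561). Depleted replicate 1 held 9047 normalized counts of it against 252 and 389 in the other depleted samples, and without that library the log2 fold change was 6.76 (limma adjusted p = 0.00264), while DESeq2 gave A2M no adjusted p. PTX3, a pattern recognition protein that binds C1q, rose by 3.13 (limma adjusted p = 0.0219), but was called in only 2 of the 6 fits that left out 1 sample. The next by mean count were LCN2 (1.89, limma adjusted p = 0.117) and SERPINA1 (0.85, limma adjusted p = 0.504). The 2 genes called lower by DESeq2 were SERPINA3 and CP (DESeq2 adjusted p = 0.0119 and 0.0177). Their limma log2 fold changes were -3.33 and -2.20 (limma adjusted p = 0.085 and 0.116). The list thus did not move in 1 direction. Of 16 transcription factors linked to cytokine, steroid or RUNX signals, 14 were tested and RUNX2 alone was called by limma, as higher (3.70, adjusted p = 0.0237). Of the 6 fits that left out 1 sample, RUNX2 was called in 1, the fit without control replicate 3. At an unadjusted p under 0.05 there were 4 higher and 0 lower, edgeR called 1 higher and 0 lower, and DESeq2 called 3 higher and 0 lower (RUNX2, STAT2 and IRF1). The median log2 fold change of the 14 was 0.11. The most abundant of them, STAT3, NR3C1 and RUNX1, had log2 fold changes of -0.09, -0.23 and 0.18, and none passed. Besides RUNX2, every depleted sample was above every control for STAT2, IRF1 and RELB, which were picked out after their values were seen. With RUNX2 these are 4 of 14 genes, where 13.5% of all genes tested had every depleted sample above. The log2 fold changes of STAT2, IRF1 and RELB were 1.25, 1.20 and 1.58 (limma adjusted p = 0.0555, 0.0667 and 0.17), and without control replicate 3 the limma adjusted p was 0.0108, 0.0152 and 0.023.

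Markers of other cell types were read from the same samples. Of 11 leukocyte markers, 5 were in the table. They summed to 442 to 1083 normalized counts in the controls and 420 to 683 without growth factors, most of it CD14 and CSF1R. PTPRC, which defines leukocytes, had 0 to 1.97 in the controls and 10.1 to 13.8 without, and was not tested. The 3 leukocyte markers tested had negative log2 fold changes by limma with all samples, and none was called in that fit. Without depleted replicate 1, CD14 was called lower (-2.52, limma adjusted p = 0.0396). CSF1R then turned to 1.24 (limma adjusted p = 0.124), and edgeR with all samples gave it 0.75 (adjusted p = 0.718). Of 10 hepatocyte markers APOB alone was in the table, at 0.984 to 11.3 in the controls and 6.71 to 13.8 without. Of 6 endothelial markers 4 were in the table, summing to 167 to 1787 in the controls and 265 to 1610 without, in the controls mostly PECAM1 and KDR. CDH5, a cadherin that defines endothelial cells, had 4.10 to 8.77 normalized counts in the controls and 25.6 to 119 without, and was called higher (log2 fold change 3.37, limma adjusted p = 0.0282), though in only 2 of the 6 fits that left out 1 sample. KDR went the other way, at 32.2 to 778 in the controls and 0 to 24.9 without. It was not called (log2 fold change -3.83, limma adjusted p = 0.193). PECAM1 overlapped between the groups (0.09, limma adjusted p = 0.981), and VWF was not tested. The 11 mesenchymal markers summed to 3953 to 11453 normalized counts in the controls and to 129060 to 194650 without growth factors. Control replicate 3 had the highest sum of the controls, of which FN1 alone was 10459. That library was the highest control for 4 of the 10 mesenchymal markers tested, and the lowest control for CDH2, COL1A2 and COL3A1. The 10 epithelial markers summed to 43920 to 91291 in the controls and 19976 to 66633 without, with depleted replicate 1 the lowest. Their part in the values of the complement genes was not tested.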

How the data were processed

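RNA-Seq was analysed for 6 samples of MCF10A cells, 3 per condition as in the sample labels, while the design text gives 2 replicates. Per the labels and the methods, the authors trimmed reads with cutadapt 1.6, aligned 100-base single-end reads to hg38 using TopHat2 and counted reads per gene of Gencode v22 using HTSeq 0.6. The authors then divided the counts by the size factors of DESeq2 1.8.1 (R 3.2.0). The deposited signal per gene is thus a normalized count, not divided by gene length. Whole reads were recovered from 100% of values (within 0.01 of a whole number). Names, coordinates and lengths came from Gencode v44, which names 18913 of 19198 identifiers.

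Differences were tested with limma 3.58.1 (eBayes with a trend) in R 4.3.3 on log2(normalized count + 1) of the 16988 genes whose mean reached 10, with 3 samples against 3. Fold changes on this scale understate the change of low genes. The procedure was tested on simulated data. Alternatives were pseudocounts of 0.5 and 10, no filter or a mean of at least 50, rescaling to equal totals, quantile normalization, no trend, a replicate block, each sample left out, edgeR 4.0.16 and DESeq2 1.42.0 on recovered reads, protein-coding genes only, and adjusted p under 0.1 or 0.01. Leaving out control replicate 3 and depleted replicate 1 together, and correcting for transcript length and GC content with and without the block, were added after the data were seen.

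The genes named are the 8 listed, the complement system genes in the table, the called and the 3 most abundant genes of the acute phase and transcription factor lists, the 2 genes most correlated with each of the 8, and genes that overlap them. Some genes are not reported here and were left out of the lists and their counts. The genes and lists were chosen with earlier results of these data known. Python 3.11.15 was used for tables and figures.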

Additional observations from a re-analysis of the deposited data

How the results depend on the processing

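CD55 was called lower in all 22 alternatives, with log2 fold changes from -2.04 to -1.84. CD46, CD59 and SERPING1 were called in none of those run. Among the 8 genes, 2 were called higher with the replicate block (C1R and C1S, adjusted p = 0.0495 and 0.026), 2 with control replicate 3 and depleted replicate 1 left out together, 1 (C1S) at an adjusted p under 0.1, and 0 to 3 when each sample was left out, 3 of them (C1R, C1S and CFB) without control replicate 3. With the block and the length and GC correction, added after the data were seen as was leaving out both libraries, 0 were called higher and C3 had an adjusted p of 0.0561. The count called lower was 2 with the replicate block (C3, adjusted p = 0.0497), by DESeq2 and with both libraries left out, and 1 to 2 when each sample was left out, 2 without depleted replicate 1. CFB turned to -1.11 by edgeR and -1.15 by DESeq2, and ranged from -0.25 without control replicate 1 to 3.72 without control replicate 3. Of the other complement genes, 1 was called higher, against 2 with no filter, without the trend, by DESeq2 and at an adjusted p under 0.1, 4 with both libraries left out, and 1 to 3 when each sample was left out, 3 of them without control replicate 3. The number called lower was 1 with both libraries left out and 0 to 1 when each sample was left out (C1QBP, without control replicate 3).

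Over all genes, 1076 were called, against 967 with the replicate block, 2112 by DESeq2, 1706 at an adjusted p under 0.1, 418 at one under 0.01, 3225 with both libraries left out, and 445 to 2483 when each sample was left out, the lowest without depleted replicate 2 and the highest without control replicate 3. Same-numbered samples had residual correlations of -0.073, -0.283 and -0.323 across genes, and the samples share only a number. These values cannot decide whether the replicate numbers pair the samples. The residuals of each group sum to 0 for every gene, so the correlations depend on one another. The secreted minus membrane difference of median log2 fold changes, 2.54, ranged from 1.25 to 3.91. It had no value with a mean of at least 50 or with both libraries left out, which leave SERPING1 out. The difference in the log2 C1S to C1R ratio stayed between 0.36 and 0.90, and that of SERPING1 to C1S between -2.93 and -1.49. Whether the groups overlapped depended on the pseudocount for both ratios. With a pseudocount of 10 they overlapped for C1S to C1R and not for SERPING1 to C1S (exact permutation p = 0.2 and 0.1). The cause of these changes was not tested. Depth limits SERPING1, CFB and the control values of C1S, which rest on as few as 0 to 13 reads.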
